A study of Arabidopsis thaliana with 18 samples.

Results

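Gene expression was compared directly between 2 embryogenic cultures of *Arabidopsis thaliana* on day 10, on ET medium with 1 µM trichostatin A (TSA) and on EA medium with 5 µM of the synthetic auxin 2,4-D. The comparison rests on 6 of the 18 libraries of the series. These are 3 biological replicates of ET 10 d and 3 of EA 10 d, named a, b and c. It was made across all genes of the count table, so that the 6 libraries are its members. Many of the genes named below were chosen with their values known. All explants were immature zygotic embryos (IZEs) of the Columbia-0 genotype, taken at the cotyledonary stage and cultured on agar with sucrose, and RNA of each library came from pooled explants. TSA was given without 2,4-D and 2,4-D without TSA. E0, the same basal medium without either inducer, on which the explants grow into seedlings, gave 3 further libraries on day 10 whose levels are printed as the background. An explant contains several tissues, so fewer cells of a type and less RNA per cell cannot be told apart in these values. The labels give no explant part or cell type, and the embryo identity of the material was not tested. The *LEC* genes and seed storage genes described below had counts in all 6 libraries. Storage genes were not particular to embryogenic cultures, with mean shares of counts of 14.4% on E0, 11.8% on ET and 3.18% on EA.

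TSA inhibits histone deacetylases, the enzymes that remove acetyl groups from histone tails, and its presence is accompanied by a more acetylated chromatin. 2,4-D binds the auxin receptors and is the standard inducer of somatic embryogenesis (SE), the formation of embryos from somatic cells. In Arabidopsis SE depends on embryo transcription factors of the LEC1-ABI3-FUS3-LEC2 (LAFL) network and on auxin made in the tissue itself from tryptophan.

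Of 34218 genes listed, 23539 passed the filter on low counts and were tested with edgeR's quasi-likelihood test, which was fitted to all 18 libraries. A gene was called a DEG at a Benjamini-Hochberg adjusted p under 0.05, and log2 fold changes are ET minus EA, given as estimate ± standard error (standard error, 3 libraries against 3). DEGs-ET/EA on day 10 numbered 7543, or 32.0% of the genes tested. Of these, 4151 (17.6% of the genes tested) were higher in ET with a median log2 fold change of 1.61, and 3392 (14.4%) were lower in ET with a median of -0.94. Every count of list members below is to be read beside these shares of all genes. A change of at least 10-fold was found for 681 genes that were higher in ET and for 279 that were lower. The libraries of both media did not overlap for 3855 of the higher and 3199 of the lower DEGs, and for 9667 of all 23539 genes tested. The balance of both directions depended on the scaling. With library totals in place of TMM factors, 3285 genes were higher in ET and 5312 lower, and higher genes made up 38.2% of the DEGs as against 55% in the values used here. The median of all genes tested moved from -0.04 to -0.21 on the log2 scale, so small changes are to be read against this shift.

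Library totals were 11582222, 23991352 and 56300290 counts for ET a, b and c and 57139115, 44021592 and 41064566 for EA a, b and c. A floor of 3 counts corresponded to 0.0525 to 0.259 CPM in these libraries, the least sensitive being ET a. Levels are given in CPM (counts in each 1000000 of the library, scaled between libraries with TMM factors) in the order of the letters a, b and c, and they are not divided by gene length, so levels of different genes are not compared. Pearson's r of log2 CPM across genes was 0.972 to 0.98 between ET libraries, 0.958 to 0.974 between EA libraries and 0.886 to 0.932 between the media. The counts were not stated to use strand, and a gene of the opposite strand covers 12.9% to 23.9% of the exon length of *CRD1*, *AIL6*, *BOP2*, *SARD1*, *KAN*, *HDA3* and *ARR6*, so their values may include reads of that gene.

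**Figure D1:**
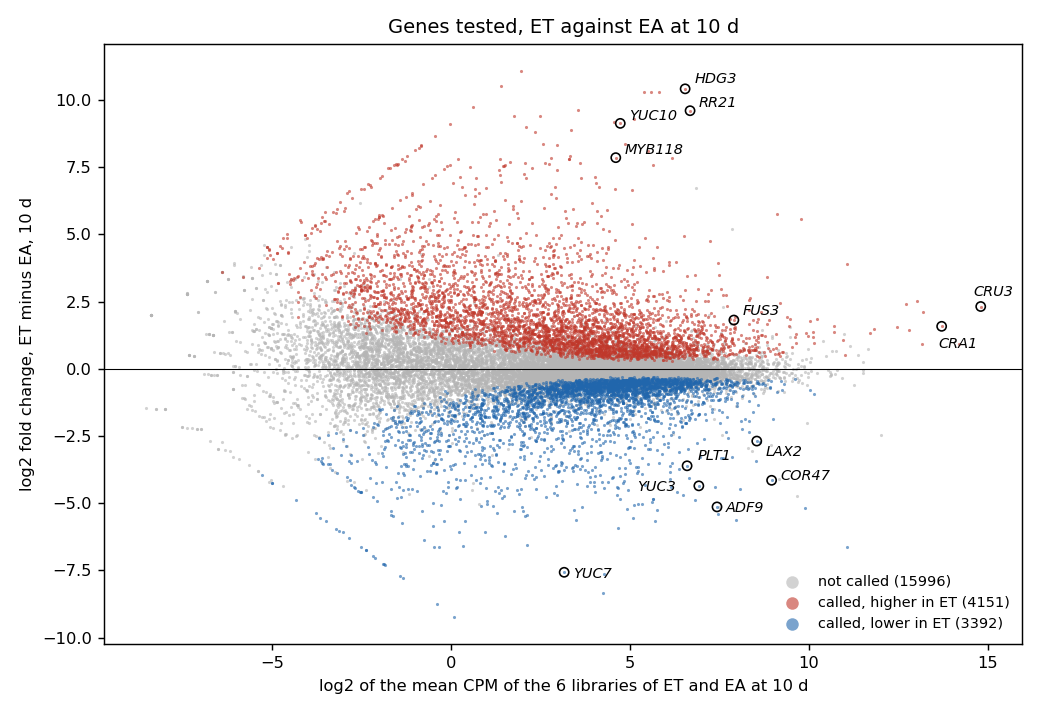
Log2 fold change (ET minus EA, 10 d) of each gene tested against the log2 of its mean CPM over the 6 libraries. Red points are the 4151 genes called higher in ET, blue points the 3392 called lower and grey points the others, 28 genes without a count in these libraries are not drawn, and the largest changes lie on the side of ET.

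Of 32 genes listed as SE regulators in the study, 29 were tested, 12 were higher in ET, 7 were lower and the median was 0.25, beside -0.04 over all genes tested. This list was drawn by the study from these libraries, so it is not independent evidence of its direction. *FUS3*, a B3-domain factor of the LAFL network, had 403, 407 and 308 CPM on ET and 125, 131 and 61.5 on EA. All ET libraries lay above all EA libraries, and the log2 fold change was 1.81 ± 0.29 (edgeR adjusted p = 1.98e-04), with 57.2 ± 2.69 CPM (SD, n = 3) on E0. *LEC1*, a subunit of the NF-Y complex, had 14.2, 10.3 and 12.4 CPM on ET against 2.26, 4.11 and 7.16 on EA, and its partner gene *LEC2*, another B3-domain factor, had 10.9, 9.88 and 9.27 against 7.12, 4.96 and 3.39. Their log2 fold changes were 1.45 ± 0.47 (edgeR adjusted p = 0.0269) and 0.95 ± 0.30 (edgeR adjusted p = 0.0222), and both were almost without counts on E0, at 0.165 and 0.323 CPM. All ET libraries again lay above all EA libraries, but the *LEC1* call was lost without EA a, EA b, ET a or ET c, with values of 1.12, 1.39, 1.34 and 1.42, and the *LEC2* call without EA b, EA c, ET a or ET b, with 0.92, 0.72, 0.89 and 0.96. *ABI3*, the remaining LAFL factor, and the MADS-box gene *AGL15* overlapped between the media, at 415 against 374 and 96.2 against 79.8 CPM, while *AGL18* was higher in ET with 1.12 ± 0.23.

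The AINTEGUMENTA-LIKE (AIL) family, AP2-domain factors that maintain meristems and embryos, was divided between the media. *PLT1* had 15.9, 12.4 and 15.7 CPM on ET and 171, 165 and 199.8 on EA, and *PLT2* had 7.12, 7.72 and 8.75 against 70.4, 57.1 and 55.5. These root-stem-cell factors were 12.2-fold and 7.71-fold lower in ET (log2 -3.61 ± 0.19 and -2.95 ± 0.16, edgeR adjusted p = 3.70e-09 and 4.00e-09), with no overlap of libraries. *BBM* and *AIL6* were also lower in ET, with log2 fold changes of -1.15 ± 0.16 and -1.21 ± 0.21 from EA levels of 132 ± 23.2 and 446 ± 126 CPM (SD, n = 3). In the other direction, *ANT* had 78.1, 70.6 and 67.8 CPM on ET against 45.1, 28.3 and 22.6 on EA (log2 1.17 ± 0.19, edgeR adjusted p = 2.28e-04). *AIL5*, also higher in ET, differed by 0.72 ± 0.15 and *AIL7* by 0.47 ± 0.14, and the *AIL7* call was lost without EA c (0.37), ET b (0.40) or ET c (0.41) and with library totals (0.29). *AIL1* was not called (11.3 against 9.78 CPM, log2 0.20).

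Among the WOX homeobox factors, *WOX11*, a gene of adventitious root founder cells, was lower in ET with 11.4, 10.3 and 14.5 CPM against 57.4, 62.1 and 90.2 (log2 -2.53 ± 0.22, edgeR adjusted p = 5.53e-07). *PRS* (*WOX3*), which acts at lateral margins of leaf primordia, had 14.7, 14.3 and 6.46 CPM on ET and 1.09, 1.09 and 1.08 on EA, a 10.8-fold higher level. The early embryo and stem cell genes *WOX8* (1.94 against 0.202 CPM), *WUS* (1.18 against 0.171) and *WOX2* (2.03 against 0.867) were called higher in ET at low levels. The *WOX2* call (log2 1.22 ± 0.44) was lost when any of the 6 libraries was left out, with values of 1.16 to 1.25. *WOX5*, *WOX4*, *HB-3* (*WOX9*) and *WOX13* were not called, with log2 values of -0.77, 0.22, 0.58 and 0.032, nor were *WOX1*, *WOX7* and *WOX12*, with 0.25, -0.88 and 0.052. *WOX10*, *PFS2* (*WOX6*) and *MYB115* had too few counts to be tested. The HD-ZIP III genes *PHB* and *PHV*, which specify the upper side of organs, were lower in ET, *PHB* with 200.4, 205 and 235 CPM against 511, 529 and 591 (log2 -1.35 ± 0.16) and *PHV* with -0.65 ± 0.17. The largest change in the list was that of *MYB118*, a MYB factor of the endosperm in seeds, which had 49.9, 49.6 and 45.4 CPM on ET, 0.211, 0.237 and 0.164 on EA and 1.61, 0.402 and 1.29 on E0 (log2 7.85 ± 0.46, edgeR adjusted p = 1.02e-08).

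**Figure D2:**
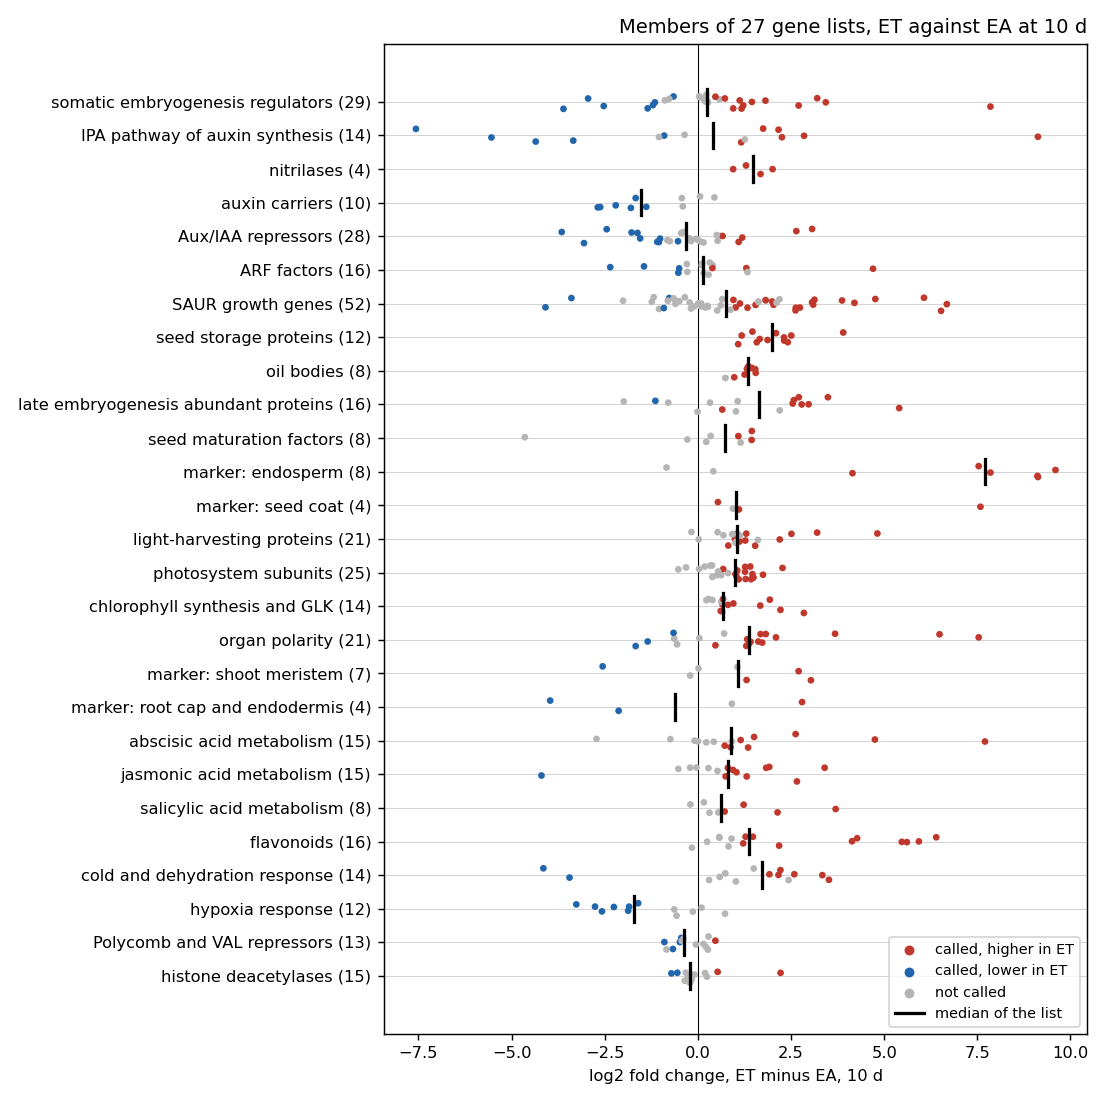
Log2 fold change (ET minus EA, 10 d) of every tested member of 27 gene lists, with the number of tested members in parentheses. Red points are called higher in ET, blue points called lower and grey points not called, and the bar is the list's median, which lies furthest to the right for endosperm markers and furthest to the left for hypoxia genes and auxin carriers.

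Auxin is made in the tissue by the indole-3-pyruvic acid (IPA) pathway, in which aminotransferases of the TAA1/TAR family convert tryptophan to IPA and flavin monooxygenases of the YUCCA (YUC) family convert IPA to indole-3-acetic acid (IAA). Of its 14 tested genes 6 were higher in ET and 5 lower, so that 11 were called as against 32.0% of all genes, and the members moved in opposite directions. *YUC10*, a *YUC* gene of the endosperm in seeds (chromosome 1, 18091681 to 18093878, TAIR10.1), had 58.9, 61 and 38.7 CPM on ET, 0.0162, 0.257 and 0 on EA and 0.644, 0.134 and 0.865 on E0. Its level on ET exceeded that of every EA and E0 library by far, with a log2 fold change of 9.13 ± 0.77 (edgeR adjusted p = 3.84e-07), which was 11.96 without EA b. *YUC4*, a gene of embryo and leaf margins, had 15.5, 14.9 and 8.7 CPM on ET against 3.85 ± 0.625 (SD, n = 3) on EA (log2 1.75 ± 0.24). *YUC5* was called at 0.541 against 0.0762 CPM, and its call was lost without ET c (log2 2.34), while *YUC1* (1.39 against 0.575 CPM, edgeR adjusted p = 0.0583) was not called by edgeR but was by DESeq2 (adjusted p = 0.0287, or 0.0288 with the beta prior). *YUC6* (6.45 against 8.24 CPM, log2 -0.36) and *YUC2* (0.187 against 0.429 CPM, log2 -1.05) were not called, and *YUC11* and *TAR1* had too few counts to be tested.

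Other *YUC* genes had the higher levels on EA. *YUC3* had 234, 236 and 225 CPM on EA and 12.3, 7.45 and 14.1 on ET, beside 6.97, 7.23 and 7.82 on E0, and was 20.4-fold lower in ET (log2 -4.35 ± 0.21, edgeR adjusted p = 3.48e-09). *YUC8* had 44.2, 62.2 and 94.2 CPM on EA against 1.64, 0.794 and 1.81 on ET (log2 -5.54 ± 0.39), and *YUC9* 14.9, 10.3 and 10.2 against 1.28, 1.06 and 1.17 (log2 -3.35 ± 0.36). *YUC7* had 19.3, 12.9 and 21.2 CPM on EA, no count in ET a and ET b and 16.6% of its exon length under a gene of the opposite strand. The aminotransferase gene *TAA1* was higher in ET, with 69.8, 72.3 and 66.9 CPM against 24.9, 33 and 35.6 (log2 1.16 ± 0.23, edgeR adjusted p = 0.00124), as was *TAR4* (log2 2.25 ± 0.30), and *TAR2* was lower (log2 -0.91 ± 0.17). *TAR3* was called at low levels, 0.365, 0.132 and 0.516 CPM on ET and 0.0325, 0.158 and 0.0468 on EA against 19 on E0, and lost its call without ET c (log2 1.41). Summed over the pathway, the share of counts was 0.0173 ± 0.00111% (SD, n = 3) on ET and 0.0418 ± 0.00223% on EA, the libraries not overlapping (exact two-sided permutation test, p = 0.1, the smallest that 3 against 3 libraries can give). Of 18 tested genes of tryptophan synthesis, which supplies the pathway, none was called higher in ET and 3 were lower. The lower share of 16.7% was near the 14.4% of all genes.

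Nitrilases hydrolyse nitriles such as indole-3-acetonitrile, which gives IAA. All 4 nitrilase genes of Arabidopsis, on chromosomes 3 and 5, were higher in ET, with a median log2 fold change of 1.49. *NIT1* had 820.5, 831 and 670.4 CPM on ET and 268, 307 and 374 on EA, and *NIT2* 356, 462 and 271 against 132, 92 and 116. Their log2 fold changes were 1.29 ± 0.22 (edgeR adjusted p = 2.76e-04) and 1.68 ± 0.22 (edgeR adjusted p = 2.56e-05), those of *NIT3* and *NIT4* were 2.00 ± 0.32 and 0.95 ± 0.20, and in all 4 the libraries of the media did not overlap. On E0 the levels were 471, 97.5, 51.5 and 12.9 CPM for *NIT1* to *NIT4*, and the ET mean stood above the E0 mean for *NIT1*, *NIT2* and *NIT4* and below it for *NIT3*. *NIT1*, *NIT2* and *NIT3* are neighbours on chromosome 3, and 3.68%, 5.66% and 0.706% of the 50-base stretches of their exons occur elsewhere in the genome, where uniquely aligned reads could not be counted.

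Polar transport moves auxin through AUX1/LAX import and PIN export proteins. Of 10 tested carriers none was called higher in ET and 6 were lower, with a median of -1.53, beside 14.4% of all genes that were lower. *LAX2* had 519, 643 and 774 CPM on EA and 89.8, 111 and 99.4 on ET (log2 -2.69 ± 0.22, edgeR adjusted p = 3.42e-07), and *PIN4* 234, 211 and 246 against 38.7, 33.5 and 40.0 (log2 -2.62 ± 0.16, edgeR adjusted p = 1.59e-08). *PIN7*, *PIN3*, *LAX3* and *EIR1* (*PIN2*) were lower in ET as well, with log2 fold changes of -1.80 ± 0.27, -1.67 ± 0.22, -2.21 ± 0.49 and -1.38 ± 0.32. *AUX1*, *PIN5*, *PIN6* and *LAX1* were not called, with -0.41, -0.43, 0.058 and 0.44, and *PIN8* had too few counts to be tested. Together these carriers took 0.046, 0.0466 and 0.0482% of the counts on ET, 0.179, 0.157 and 0.173% on EA and 0.0508, 0.0300 and 0.0401% on E0, and the ET and EA libraries did not overlap (exact permutation p = 0.1, the smallest possible).

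Auxin response runs through Aux/IAA repressors, which are degraded when auxin binds its receptor, and through ARF factors, which bind the target genes. Of 28 tested *Aux/IAA* genes, 10 were lower in ET and 5 higher, with a median of -0.31. The non-canonical repressor gene *IAA33* had 76.7, 77.2 and 45.5 CPM on EA and 6.57, 4.67 and 4.79 on ET (log2 -3.65 ± 0.31, edgeR adjusted p = 4.32e-07). *IAA20* and *IAA14* were lower (log2 -2.45 ± 0.31 and -3.06 ± 0.38), while *IAA5* was higher in ET, with 9.77, 15.3 and 4.57 CPM against 1.85, 0.633 and 1.01. *MP* (*ARF5*), the ARF of embryo axis and vascular formation, had 478, 523 and 620.4 CPM on EA and 99.1, 109 and 109 on ET, a 5.11-fold lower level (edgeR adjusted p = 6.35e-08). *ARF11* moved the other way, with 17.8, 29.2 and 24.4 CPM on ET against 0.796, 1.09 and 0.866 on EA (log2 4.70 ± 0.33). The ARF list as a whole had 3 genes higher and 4 lower of 16, and its median of 0.14 turned to -0.05 with library totals. Among the GH3 enzymes, which conjugate auxin to amino acids, *GH3.17* was lower in ET (35.3 against 138 CPM) and *GH3.3* and *GH3.1* were higher (log2 1.02 ± 0.27 and 1.49 ± 0.32). Their family includes *PBS3*, a gene of salicylic acid synthesis, which had 7.94, 16.7 and 11 CPM on ET and 0.357, 0.0791 and 0.0936 on EA. Of 52 *SAUR* growth genes 20 were higher and 4 lower, with a median of 0.77, among them *SAUR33* (18.6 against 2.16 CPM) and, in the other direction, *SAUR37* (5.39 against 56.7).

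**Figure D3:**
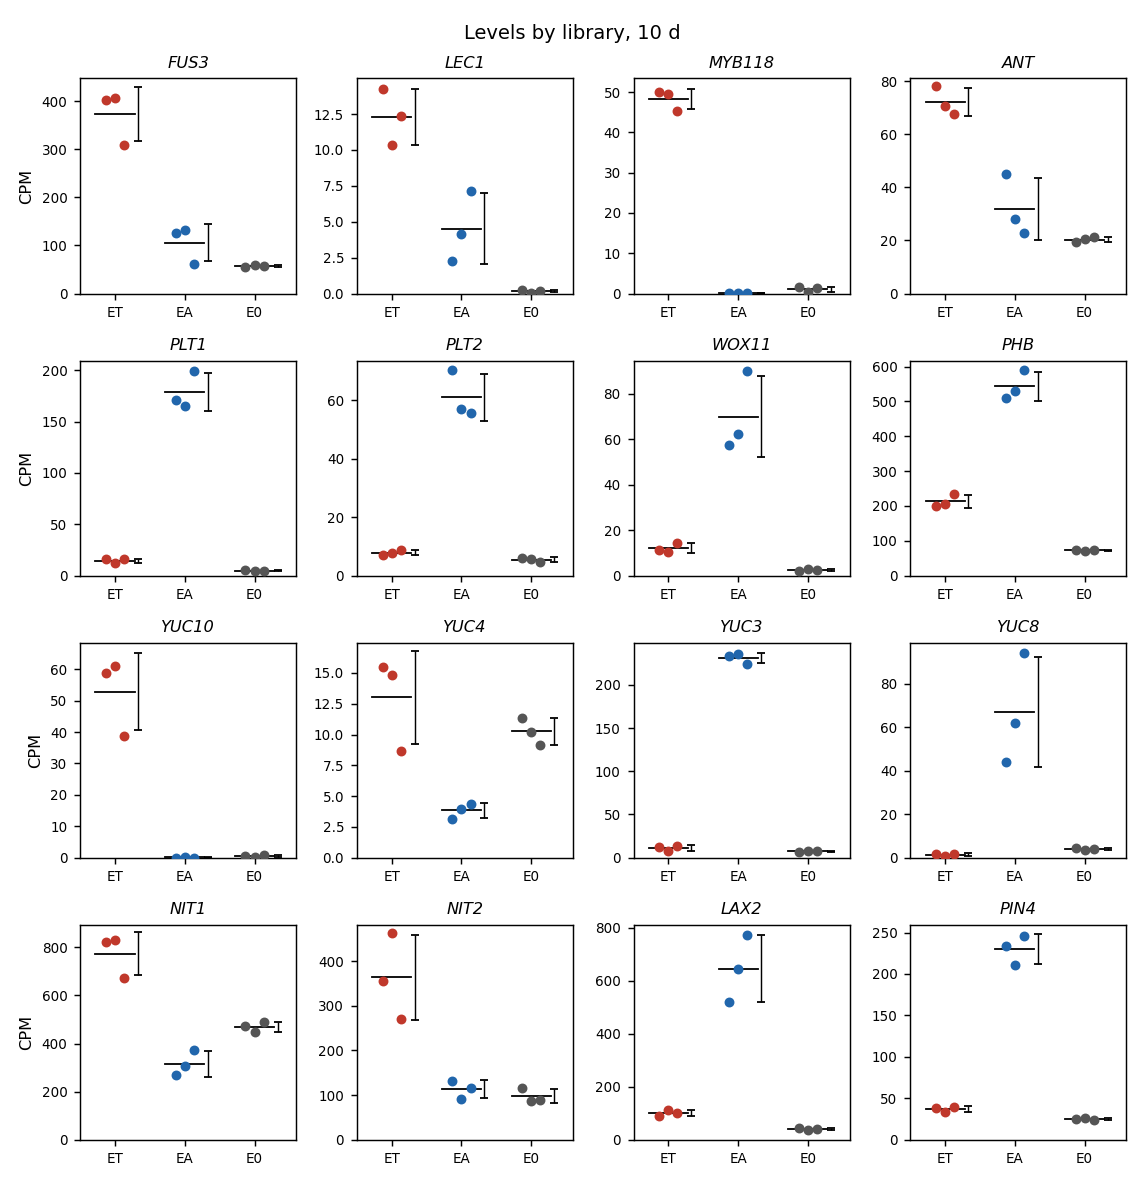
CPM in each library of ET, EA and E0 on day 10 for 16 genes. There are 4 panels each of SE regulators higher in ET, of those lower in ET, of *YUC* genes, and of nitrilases and auxin carriers. Points are libraries, horizontal bars means and vertical bars the SD (n = 3), and in each of the 16 panels the ET and EA libraries do not overlap.

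Seed storage proteins, the cruciferins (12S) and albumins (2S) that fill protein bodies in maturing seeds, were higher in ET as a whole. All 12 tested genes of this list were higher in ET, with log2 values from 1.08 to 3.90 and a median of 1.98, beside 17.6% of all genes called higher. They took 13.2, 12.8 and 9.45% of the counts on ET, 2.54, 4.45 and 2.54% on EA and 11.4, 18.5 and 13.3% on E0, so that ET and EA did not overlap while ET and E0 did (exact permutation p = 0.1 for ET against EA, the smallest possible). *CRU3* had 63278, 51668 and 27831 CPM on ET and 10995, 12477 and 5214 on EA, *CRA1* 24590.0, 17595 and 18066 against 4962, 8148 and 7059, and *SESA1* 4066, 5789.7 and 2216 against 182, 359.8 and 266. The log2 fold changes were 2.32 ± 0.47, 1.58 ± 0.29 and 3.90 ± 0.43 (edgeR adjusted p = 0.00142, 5.54e-04 and 4.53e-06). *SESA2* and *SESA4* stood above both EA and E0, with 14105 and 11288 CPM on ET, 2482 and 2120.0 on EA and 5438 and 4055 on E0.

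Oil body proteins, which coat the lipid stores of the seed, were higher in ET for 7 of 8 genes, with a median of 1.33. Against E0 the median was 0.06 for ET and -1.38 for EA, so ET was near the level of E0 and EA below it. *OLEO1* had 9544, 11831 and 9956 CPM on ET and 3431, 5194 and 2839.7 on EA, *OLEO2* was higher by 1.54 ± 0.23 and the caleosin gene *ATS1* by 1.32 ± 0.25. Of 16 late embryogenesis abundant (LEA) genes, which encode desiccation-related proteins, 8 were higher and 1 lower, with a median of 1.63. Their medians against E0 were -0.098 for ET and -1.98 for EA. *EM1* had 31.1, 28.3 and 8.29 CPM on ET and 0.292, 0.475 and 0.842 on EA, and *LEA7* 244, 655 and 94.2 against 24.6, 43.5 and 20.3, so that the LEA genes also varied several-fold between ET libraries. Of 8 factors of seed maturation, 3 were higher, namely *DPBF2* (*bZIP67*), with 113, 106 and 108 CPM against 45, 36 and 39.2 (edgeR adjusted p = 3.33e-07), *DOG1* of seed dormancy (log2 1.45 ± 0.19) and *WRI1* of oil synthesis (313, 314 and 312 against 178, 180.2 and 84.7 CPM). *EEL*, *ABI5* and *ABI4* were not called, at log2 0.34, 1.15 and -0.28. The lowest value of this list was -4.64, for a gene that was not called either.

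The bases before the annotated start of a gene are shown for a cruciferin gene (*CRU3*), an albumin gene (*SESA3*) and an oleosin gene (*OLEO1*), because the members of these lists moved together, and for *HDG3* and *YUC10*, 2 genes with changes of over 100-fold. Each window is the 250 bases upstream of the gene start in the TAIR10.1 reference genome, 5′ to 3′ on the strand of the gene. Capitals mark the RY core CATGCA, the auxin response elements TGTCTC and TGTCGG and the G-box CACGTG on either strand. Windows lie at chr4:14087306-14087555 (+), chr4:13611546-13611795 (+), chr4:12900180-12900429 (+), chr2:13740628-13740877 (+) and chr1:18091431-18091680 (+).
CRU3: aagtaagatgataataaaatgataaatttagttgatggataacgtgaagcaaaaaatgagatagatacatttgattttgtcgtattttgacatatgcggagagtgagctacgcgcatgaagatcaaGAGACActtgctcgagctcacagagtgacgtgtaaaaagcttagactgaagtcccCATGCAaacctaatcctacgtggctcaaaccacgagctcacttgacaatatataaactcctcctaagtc
SESA3: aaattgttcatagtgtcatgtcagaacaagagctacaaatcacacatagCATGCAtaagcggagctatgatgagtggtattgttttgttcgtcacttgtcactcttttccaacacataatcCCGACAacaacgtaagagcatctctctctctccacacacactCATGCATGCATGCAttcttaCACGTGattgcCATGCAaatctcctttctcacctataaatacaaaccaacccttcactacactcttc
OLEO1: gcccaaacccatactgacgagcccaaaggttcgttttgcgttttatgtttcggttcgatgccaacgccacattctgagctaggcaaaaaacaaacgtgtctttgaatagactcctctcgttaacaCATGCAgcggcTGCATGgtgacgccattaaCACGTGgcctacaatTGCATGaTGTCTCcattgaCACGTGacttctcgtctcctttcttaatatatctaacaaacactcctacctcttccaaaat
HDG3: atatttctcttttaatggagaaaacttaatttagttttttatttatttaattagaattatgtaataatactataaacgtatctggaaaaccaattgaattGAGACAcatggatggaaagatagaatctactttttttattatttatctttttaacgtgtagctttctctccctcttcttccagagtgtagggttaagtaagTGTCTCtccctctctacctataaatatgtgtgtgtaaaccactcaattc
YUC10: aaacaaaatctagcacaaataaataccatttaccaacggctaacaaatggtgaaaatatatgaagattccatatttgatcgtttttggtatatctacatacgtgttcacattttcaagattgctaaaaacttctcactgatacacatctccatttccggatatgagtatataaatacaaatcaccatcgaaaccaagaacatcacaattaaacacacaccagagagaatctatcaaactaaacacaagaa

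The window of *SESA3* held 7 matches to the RY core, 5 of them overlapping in a run, that of *OLEO1* held 3 and that of *CRU3* held 1, and *HDG3* and *YUC10* held none. The RY core, which B3-domain factors such as FUS3, LEC2 and ABI3 are known to bind, was found in the windows of 10 of 12 storage genes, of 8 of 8 oil body genes and of 4 of 16 LEA genes. Over all 23288 nuclear genes tested with a window the share was 8.16%, and it was 11.8% for genes called higher in ET and 8.09% for genes called lower. The G-box was present for 8.62% of higher, 6.26% of lower and 7.09% of all genes, and the auxin response elements for 15.3%, 14.6% and 15% in the same order. *Aux/IAA* genes held an auxin response element in 12 of 28 windows. These are matches of letters only, and binding was not measured.

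Among the largest changes in ET were those of genes known from the endosperm, the nourishing tissue of the seed that surrounds the embryo. *HDG3*, a class IV homeodomain-leucine zipper gene (chromosome 2, 13740878 to 13746286, TAIR10.1), had 155, 209.6 and 193 CPM on ET, 0.195, 0.158 and 0.0234 on EA and 3.78, 0.602 and 4.34 on E0. *RR21*, which encodes a type-B response regulator, had 191, 252 and 171 CPM on ET, 0.276, 0.435 and 0.0468 on EA and 3.97, 0.87 and 3.38 on E0. The chromatin remodeller gene *PKR2* had 18.8, 14.1 and 25.7 CPM on ET, 0.0812, 0.0593 and 0.117 on EA and 0.241, 0.0669 and 0.322 on E0. With log2 fold changes of 10.41 ± 0.74, 9.60 ± 0.73 and 7.80 ± 0.57, all 3 lay far outside the spread between libraries (edgeR adjusted p = 8.05e-08, 4.26e-07 and 1.01e-07). The E0 levels of *HDG3* and *RR21* were above those of EA and far below those of ET. *RGE1* (*ZHOUPI*), a bHLH factor of endosperm breakdown, and the protease gene *ALE1* had 3 counts or fewer in every EA library, and their mean CPM on ET were 5.44 and 1.96, at least 91.5-fold and 33.1-fold above that floor.

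Over the whole list of 12 endosperm markers, 8 were tested, of which 6 were higher and none lower. *PHE1*, *FIS2*, *FWA* and *MINI3* did not pass the filter, and *AGL62* and *MEA*, also defining genes, were not called, at 1.12 against 0.837 and 0.0364 against 0.0438 CPM. The median was 7.69, or 5.78 when the 3 genes at the floor were set to their bounds. Genes almost without counts on EA could pass the filter only through libraries of other groups, such as ET. The counts of higher and lower genes and the median are therefore fixed in part by the filter, here and for the seed coat markers. *IKU2*, a receptor kinase gene of endosperm growth, was called at 0.274, 0.309 and 0.872 CPM on ET and had more on E0 (3.73, 2.68 and 1.97). The summed share of counts of the list was 0.0292, 0.035 and 0.0265% on ET, 0.000145, 0.000268 and 0.000153% on EA and 0.00121, 0.000513 and 0.000923% on E0. Of 8 seed coat markers 4 were tested and 3 called higher, with the MADS-box gene *TT16* at 6.39, 7.58 and 3.11 CPM on ET, at least 95.8-fold above the floor of EA, and *BAN*, *TT12*, *TT2* and *PRX36* not tested. Whether endosperm or seed coat tissue was present in the explants of ET was not tested. *MYB118*, *YUC10*, *RR21* and *RGE1* count here and in other lists. Of 8 pollen and tapetum markers only *AMS* and *QRT3* passed the filter, and neither was called.

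Other genes with changes of over 50-fold in ET had roles outside the seed lists. *CSY1*, a citrate synthase gene, had 97.4, 69 and 120.3 CPM on ET and 0, 0.178 and 0.0468 on EA, and *AMY1*, an alpha-amylase gene, 29.6, 27 and 39.3 against 0.26, 0.158 and 0.257. The sucrose exporter gene *SWEET11* had 9.95, 1.32 and 19.1 CPM on ET, with ET b far below the others, was at least 170.4-fold above the floor of EA by its mean, and had 13, 17.5 and 16.7 on E0. The trehalose-6-phosphate synthase gene *TPS4*, the lipid transfer protein gene *LTP4*, the cytochrome P450 genes *CYP81D7* and *CYP71A23* and the annexin gene *ANN6* were higher by 8.35 ± 0.86, 8.09 ± 1.07, 7.08 ± 0.67, 6.76 ± 0.49 and 6.65 ± 0.56 on the log2 scale. *LTP4* differed between ET libraries (189, 55.1 and 27.1 CPM) and had a log2 fold change of 6.96 without ET a, that of *TPS4* was 11.65 without EA b, and 24.1% of the *ANN6* exon length overlaps a gene of the opposite strand.

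**Figure D4:**
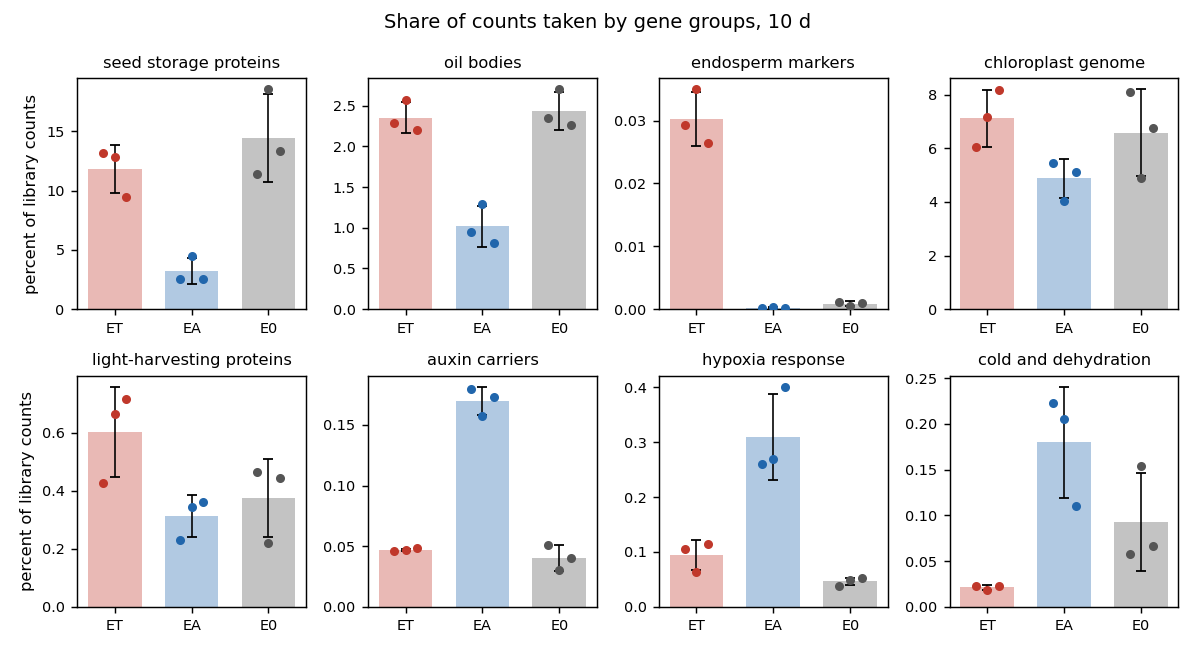
Percent of library counts taken by 8 gene groups on ET, EA and E0, day 10. Bars are means, error bars the SD (n = 3) and points libraries, and in each of the 8 groups the ET and EA libraries do not overlap.

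Genes of photosynthesis were higher in ET or not called. Of 21 light-harvesting protein genes 11 were higher and none lower (median 1.05), of 25 photosystem subunit genes 14 and none (1.01), of 5 Rubisco small subunit and activase genes 4 and none (1.97), and of 14 genes of chlorophyll synthesis and its GLK regulators 9 and none (0.67). *GPRI1* (*GLK1*) and *GLK2*, the factors that switch on chloroplast genes of the nucleus, were among them. *GPRI1* had 40.0, 50.4 and 32 CPM on ET and 5.77, 6.57 and 4.68 on EA, and *GLK2* had 27.9, 37.8 and 23.1 on ET and 6.34, 6.07 and 6.69 on EA, without overlap. Their log2 fold changes were 2.84 ± 0.27 (edgeR adjusted p = 9.76e-07) and 2.22 ± 0.18 (edgeR adjusted p = 3.42e-07). *RCA*, the Rubisco activase, had 239.5, 291 and 245 CPM on ET, 80.3, 54.9 and 62.9 on EA and 458, 309 and 402 on E0, and *RBCS1A* was higher by 1.28 ± 0.28. The antenna genes *CAB2* and *LHCA3* were higher by 2.20 ± 0.40 and 1.27 ± 0.29, while *CAB1* had 1812 against 897 CPM and was not called (edgeR adjusted p = 0.0789, but 0.0389 with DESeq2). 20.5% of the *CAB2* and 17% of the *CAB1* exon stretches of 50 bases occur elsewhere in the genome. In chlorophyll synthesis *CRD1* was higher by 1.67 ± 0.23 and *GUN4* by 1.93 ± 0.30, the latter with 73% of its exon length under an opposite gene.

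Genes encoded in the chloroplast itself took 6.04, 7.15 and 8.17% of the counts on ET and 5.46, 4.05 and 5.12% on EA, and 28 of 114 were higher and 1 lower, with a median of 0.44. On E0 the share was 8.1, 4.88 and 6.75%, which overlapped both. Of 97 mitochondrial genes 3 were higher and 3 lower, and their summed share was 1.02 ± 0.0166% (SD, n = 3) on ET and 1.44 ± 0.155% on EA. The mesophyll markers *RBCS1A* and *RCA* belong to the genes named above, and the carbonic anhydrase gene *CA1* was also higher in ET, at 0.548, 3.39 and 7.54 CPM against 0.0325, 0.237 and 0.117, with 44.1 on E0.

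Organ polarity, the difference between the upper and lower side of leaves and cotyledons, is set by HD-ZIP III genes above and by KANADI and YABBY genes below. The list was taken from the study, which drew it in part from these libraries, and of its 21 tested genes 14 were higher in ET and 3 lower, with a median of 1.37. Against E0, 16 genes of the list were higher and 0 lower on ET, and 8 were higher and 5 lower on EA. The tested KANADI and YABBY genes of the lower side were all higher in ET than in EA. *KAN* (*KAN1*) had 25.8, 29.1 and 19.5 CPM on ET and 8.29, 8.6 and 4.07 on EA, *KAN2* was higher by 1.32 ± 0.34, *KAN3* by 3.68 ± 0.44 and *ATS* (*KAN4*) by 1.41 ± 0.22. *AFO* (*FIL*) had 62.5, 57.8 and 47.1 CPM on ET against 19.8, 31.1 and 13.9 on EA (edgeR adjusted p = 1.55e-04), and *YAB2*, *YAB3* and *YAB5* differed by 1.30 ± 0.25, 1.39 ± 0.22 and 1.73 ± 0.19. The genes of the upper side, *PHB* and *PHV*, were lower in ET as given above, and *REV* (81.2 against 119.6 CPM) was not called. *AS2*, a partner in upper identity, was lower, with 6.75, 5.64 and 5.2 CPM on ET and 26.7, 15.9 and 12.9 on EA, while the boundary genes *BOP2* and *BOP1* were higher (log2 1.68 ± 0.19 and 1.62 ± 0.47), the *BOP1* call being lost without EA b (1.44), EA c (1.30) or ET b (1.39) and its value being 2.35 without EA a. *INO*, *CRC* and *CBF1* were not tested, at low counts. *ULT2*, a trithorax-like factor, had 14.3, 13.5 and 13.5 CPM on ET and 0.0975, 0.218 and 0.14 on EA, and *HB32* 13.9, 13.1 and 14.6 against 2.91, 3.42 and 3.42. *RGE1*, *AIL7*, *PHB* and *PHV* are in this list as well as in others, and *LBD18*, *LBD41* and *AS1* were not called.

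Other tissue markers moved unequally. The cup-shaped cotyledon genes *CUC1* and *CUC3*, which mark boundaries of the shoot meristem, were higher in ET, *CUC1* with 52.2, 66.7 and 59.3 CPM against 9.42, 7.24 and 5.08 (log2 3.03 ± 0.29, edgeR adjusted p = 1.02e-06). *STM*, the defining meristem gene, had 18.1, 14.2 and 21.9 CPM on ET and 10.7, 16 and 26.9 on EA and the media overlapped, and 3 of 7 shoot meristem markers were higher and 1, *CLV3*, lower at under 1 CPM. Root cap genes were lower in ET. *SMB* had 35.6, 30.2 and 32 CPM on ET and 158, 142 and 126 on EA (edgeR adjusted p = 8.87e-08), and *NAC015* (*BRN1*) 3.29, 0.617 and 2.67 against 32.8, 26.4 and 41.5, while the endodermis gene *CASP1* was higher at 2.00 against 0.291 CPM. The phloem companion cell gene *SUC2* had 213, 357 and 240.3 CPM on ET and 14.3, 37.7 and 54.7 on EA, and all 3 phloem markers were higher (median 1.82). Of 6 xylem markers 1 was higher, of 6 stomatal lineage markers 1, of 5 root hair markers 2 and of 4 epidermis markers 3, among these *ATML1* (0.90 ± 0.18) and *PDF2* (0.93 ± 0.16), and none of these 4 lists had a lower gene.

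Cytokinin genes were divided as well. Type-A response regulators, which are induced by cytokinin and dampen its signal, had 3 higher and 4 lower genes of 10. *RR16* had 23.7, 13.2 and 16.4 CPM on ET and 0.211, 0.396 and 0.304 on EA (log2 5.86 ± 0.34, edgeR adjusted p = 9.59e-09), whereas *ARR3* had 1.64, 0.705 and 2.28 against 36.9, 46.9 and 93.4 (log2 -5.21 ± 0.45, edgeR adjusted p = 4.29e-07). *RR5* and *ARR15* were higher by 1.31 ± 0.26 and 3.06 ± 0.56 (*ARR15* 2.37 without ET b), and *ARR6* and *ARR9* were lower (log2 -2.39 ± 0.21 and -0.86 ± 0.13). Cytokinin oxidases degrade the hormone, and *CKX3* had 67.3, 74.7 and 55.9 CPM on ET and 5.23, 9.22 and 6.93 on EA. *CKX7* was higher by 2.07 ± 0.32, and 7 of 22 genes of cytokinin synthesis and oxidation were higher and 2 lower. These are 31.8% and 9.09%, beside 17.6% and 14.4% of all genes.

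Gibberellin oxidase genes numbered 4 higher and 3 lower of 14, or 28.6% and 21.4%, beside 17.6% and 14.4% of all genes. *GA20OX3*, a 20-oxidase gene of gibberellin synthesis, had 351, 392 and 295 CPM on ET, 63.5, 76.1 and 67.2 on EA and 205, 188 and 194 on E0 (log2 2.33 ± 0.17, edgeR adjusted p = 8.64e-08). *GA20OX1* was higher by 2.84 ± 0.55 at 3.82 CPM (log2 2.12 without ET b), and *GA3OX3* was lower (log2 -2.67 ± 0.56) at 1.27 CPM on EA. Ethylene is made by ACC synthases (ACS) and ACC oxidases (ACO), of which 5 (41.7%) were higher and 3 (25%) lower of 12 tested. *ACS6* had 64.3, 59.9 and 58.3 CPM on ET and 6.64, 4.85 and 4.42 on EA (log2 3.52 ± 0.25). Of the oxidases *ACO1* had 48, 23.4 and 58.2 CPM on ET against 291, 412 and 563 on EA and *ACO5* 41.2, 16.7 and 45.2 against 395, 321 and 306, both lower in ET, while *EFE* (log2 -0.81) was not called. The share of counts of the 14 genes listed was 0.023 ± 0.00278% (SD, n = 3) on ET and 0.0983 ± 0.011% on EA.

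Abscisic acid (ABA) genes were higher in ET for 8 of 15 (53.3%, beside 17.6% of all genes) and lower for none, with a median of 0.88. The dioxygenase genes *NCED6*, *NCED3* and *NCED9*, catalyse the committed step of ABA synthesis. *NCED6* had 7.48, 7.14 and 4.00 CPM on ET and 0, 0.0791 and 0 on EA, *NCED3* had 4.93, 2.47 and 5.8 on ET and 0.601, 1.09 and 0.445 on EA, and *NCED9* had 8.03, 6.22 and 6.78 on ET and 2.26, 3.03 and 2.95 on EA. All ET libraries exceeded all EA libraries for the 3 genes (edgeR adjusted p = 9.46e-06, 1.68e-04 and 0.00161). *BGLU18*, which releases ABA from its glucose ester, had 325, 214 and 334 CPM on ET and 8.12, 13.8 and 10.6 on EA, and the ABA hydroxylase gene *CYP707A1*, whose product degrades ABA, was higher as well (log2 0.88 ± 0.22).

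Jasmonic acid (JA) genes were higher for 9 of 15 and lower for 1, with a median of 0.80. *LOX2*, the lipoxygenase of JA synthesis, had 11, 7.19 and 7.49 CPM on ET, 0.796, 1.05 and 0.538 on EA and 81.6, 162 and 126 on E0, and *OPCL1* and *ACX3* were higher by 1.83 ± 0.19 and 1.31 ± 0.17. *JMT*, the methyltransferase that makes methyl jasmonate, was the gene that was lower, with 1.83, 0.176 and 2.38 CPM on ET and 35.9, 25 and 22.3 on EA (edgeR adjusted p = 1.87e-05). Salicylic acid (SA) genes were higher for 4 of 8, among them the isochorismate synthase genes *EDS16* (*ICS1*) with 11.2, 23.7 and 7.58 CPM against 3.62, 2.81 and 3.21 and *ICS2* with 0.274, 1.1 and 1.35 against 0.0325, 0.138 and 0.0468. Among 19 tested defence genes 8 were higher and 1 lower. *SARD1*, a factor that activates *ICS1*, had 12.9, 22 and 16.6 CPM on ET and 0.78, 1.09 and 0.421 on EA, and *WRKY70* and *FMO1* were higher by 3.83 ± 0.39 and 5.93 ± 0.68 (*FMO1* 5.22 without ET b). The JA and SA genes given by library did not overlap between ET and EA. *PAD3* of camalexin synthesis was lower, at 5.11 against 24.9 CPM.

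Stress genes of the list for cold and dehydration did not move together. The dehydrin genes *COR47* and *ERD10*, which both lie on chromosome 1, were lower in ET. *COR47* had 62.6, 34.9 and 61.8 CPM on ET and 1268, 979 and 575 on EA, and *ERD10* had 68.6, 36.6 and 80.5 on ET and 777, 784 and 463 on EA. The groups lay far apart, and the log2 fold changes were -4.15 ± 0.37 and -3.45 ± 0.34 (edgeR adjusted p = 6.43e-07 and 1.44e-06). The summed share of the list, to which both contribute, was 0.0213 ± 0.00256% (SD, n = 3) on ET and 0.18 ± 0.0604% on EA, although 6 of 14 genes were higher in ET, such as the ABA-responsive *LTI65* (*RD29B*) at 18.8 against 1.63 CPM. Genes of the response to low oxygen were lower in ET for 7 of 12 and higher for none, with a median of -1.73. *ADH1*, the alcohol dehydrogenase of fermentation, had 282, 179 and 202 CPM on ET and 503, 591 and 1333 on EA, *PDC1* 141, 39 and 113 against 384, 380.1 and 636, and the haemoglobin gene *HB1* 42.7, 8.02 and 39.5 against 131, 118 and 361. The ET and EA libraries of these genes did not overlap. The sucrose synthase gene *SUS1* had 381, 392 and 328 CPM on EA, 74.4, 26.1 and 84.2 on ET and 80.2, 71.5 and 86.3 on E0 (log2 -2.58 ± 0.35, edgeR adjusted p = 3.57e-05).

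Flavonoid genes were higher in ET for 10 of 16 and lower for none, with a median of 1.38. *DFR* and *LDOX*, encode the late enzymes that lead to anthocyanins. *DFR* had 10.8, 33.2 and 18.4 CPM on ET, 0.179, 0.613 and 0.234 on EA and 83.5, 87 and 116 on E0, and *LDOX* had 15.8, 38.2 and 22.3 on ET, 0.309, 1.15 and 0.257 on EA and 84.4, 122 and 126 on E0. ET stood above EA and below E0 in every library for both genes (edgeR adjusted p for ET against EA = 3.16e-06 and 1.85e-05). The bHLH regulator *TT8* was higher by 4.27 ± 0.60 at 1.93 CPM. Glucosinolates, the defence compounds of the cabbage family, had 8 higher and 4 lower genes of 17, divided by branch. *CYP79F1* and *CYP83A1* belong to the aliphatic branch, whose called genes were all higher. *CYP79F1* had 20.5, 6.92 and 31.2 CPM on ET and 0.0162, 0.237 and 0 on EA, and *CYP83A1* had 33.4, 11.8 and 64.4 on ET and 0.39, 2.08 and 0.538 on EA. *CYP79B2*, *CYP83B1* and their regulator *MYB34* of the indole branch were lower in ET (log2 -1.87 ± 0.32, -0.97 ± 0.25 and -1.43 ± 0.18). The myrosinase genes *TGG1* and *TGG2*, whose products cleave glucosinolates, were higher by 2.02 ± 0.18 and 5.81 ± 0.33.

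Cell wall genes were changed in both directions, with 23 higher and 12 lower of 56 expansin and xyloglucan hydrolase (XTH) genes and a median of 0.59. *XTH7* had 13.1, 8.29 and 16.7 CPM on ET and 0.374, 0.732 and 0.398 on EA, *TCH4* was higher by 1.91 ± 0.22, and *XTH11* had 1.1, 0.926 and 1.76 against 34.2, 15.5 and 30.5. Expansins and XTH enzymes loosen the wall. Class III peroxidases, which act in the wall, were higher for 9 of 11 and lower for 1 (median 2.23), with *PRXCB* at 86, 64.8 and 67.5 CPM on ET, 5.86, 6.29 and 3.11 on EA and 329, 309 and 293 on E0 and *PRX25* lower (log2 -2.33 ± 0.33).

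Histone deacetylases are the enzymes that TSA inhibits. Of their 15 tested genes 2 were higher and 2 lower (median -0.21), a share near the 32.0% called over all genes. *HDA18* was higher in ET (3.47, 8.16 and 2.28 CPM against 1.56, 0.692 and 0.702, log2 2.22 ± 0.47, or 1.51 without ET b), *HDT4* was lower (log2 -0.71 ± 0.17), and *HD2C* and *HDA3* (*HD2A*) differed by 0.53 ± 0.15 and -0.55 ± 0.16, calls that were lost without EA a (0.41) or ET b (0.46) for *HD2C* and without EA b (-0.44), ET a (-0.52) or ET b (-0.52) for *HDA3*. *HD1* (*HDA19*) had 136 CPM on ET and 154 on EA and was not called. Of 12 histone acetyltransferase genes only *HAC5* was called, lower in ET (log2 -0.38 ± 0.14), and its call was lost without EA a (-0.27), EA c (-0.40), ET a (-0.29) or ET b (-0.36). Among Polycomb and VAL repressors, which silence embryo genes after germination, 4 of 13 were lower and 1 higher. *HSL1* (*VAL2*) had 39, 35.7 and 39.8 CPM on ET and 79.7, 57.9 and 76.1 on EA (log2 -0.90 ± 0.14, edgeR adjusted p = 9.99e-05), and *CLF*, *VRN2* and *EMF2* were lower (log2 -0.67 ± 0.18, -0.48 ± 0.12 and -0.45 ± 0.12), 3 calls that were not made when only the 6 libraries of the comparison were fitted. *DRIP2* (*BMI1A*) was higher by 0.47 ± 0.12, which was not called with library totals (0.29) or in the fit of 6 libraries (0.47).

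Growth and division genes are given beside the 17.6% of all genes called higher in ET and the 14.4% called lower. Of 34 DNA replication genes 2 were higher and 3 lower, of 23 mitotic cyclin and CDKB genes 2 and 4, of 20 core histone genes 1 and 1, and of 9 D-type cyclins 3 and 1. Of 46 cytosolic ribosomal protein genes none was higher and 8 were lower, with a median of -0.40 and a summed share of 0.809 ± 0.0992% (SD, n = 3) on ET against 1.18 ± 0.201% on EA. In further lists without a common direction, 9 of 39 glutathione transferases were higher and 8 lower, and 6 of 27 LBD factors were higher and 7 lower. Of 10 cellulose synthases 5 were higher and none lower, of 7 small heat shock proteins and *HSP101* 1 and none, and of 9 type-B response regulators 2 and 1. The medians of the gibberellin oxidases and the type-B regulators, 0.15 and 0.16, both turned to -0.02 with library totals, as that of the ARF factors did.

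The genes of the largest changes toward EA had varied roles. The plant defensin gene *LCR67* had 3.38, 12.7 and 96.6 CPM on EA and 0.183, 0.0882 and 0.107 on ET, so that EA exceeded ET in every library but itself varied over a wide range, and the log2 fold change went from -8.33 ± 1.61 to -6.11 without EA c. *ADF9*, an actin-binding factor, had 404, 363 and 240.0 CPM on EA, 11.4, 6.53 and 10.8 on ET and 3.43, 3.48 and 2.83 on E0 (log2 -5.14 ± 0.39, edgeR adjusted p = 1.38e-07). *FEZ*, a NAC factor of root cap stem cells, had 43.5, 44.9 and 23.2 against 1.64, 1.63 and 1.85, and *RGF3*, which encodes a peptide of the root meristem, 930.1, 414 and 189.9 against 32.6, 15.4 and 21.9. The cellulase genes *CEL5* and *GH9B6*, the receptor-like kinase gene *LYK2*, the fucosyltransferase gene *FUT6* and the kinase gene *CIPK25* were lower with log2 fold changes of -4.94 ± 0.41, -4.84 ± 0.40, -5.03 ± 0.37, -4.31 ± 0.43 and -4.30 ± 0.49, and without ET c the first 3 stood at -5.54, -5.57 and -5.67. *GMD1*, a GDP-mannose dehydratase gene, was lower (log2 -4.40 ± 0.38), but all of its exon length lies under a gene of the opposite strand, and 27.9% of that of *LYK2*, so their reads cannot be assigned with certainty.

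The same contrast on day 5 rests on 6 other libraries and gave 8584 DEGs, 4722 higher and 3862 lower in ET. Both days shared 2183 genes that were higher and 1596 that were lower, which is 50.1% of the DEGs of day 10 and 44% of those of day 5, while 239 genes were higher on day 10 and lower on day 5 and 135 the reverse. Across genes the log2 fold changes of both days correlated with Pearson's r = 0.49 and Spearman's rho = 0.39 over 23539 genes, which are not independent replicates. The difference between the days, tested in the same edgeR fit, was called for 3493 genes (14.8%), 1812 more positive and 1681 more negative on day 10. *HDG3*, *PLT2*, *WOX11* and *YUC3* were among the genes with like values on both days, with day 5 values of 10.32, -3.02, -2.47 and -5.13, and a difference between days was not called for them.

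Counts of list members on day 5 are to be read beside 4722 higher and 3862 lower genes of all 23539 tested. Seed storage genes differed between the days, since the difference was called positive for 11 of 12, and on day 5 only 1 was higher in ET and 4 were lower. *CRU3* was at 0.21 on day 5 and 2.32 on day 10, and the difference between days was 2.10 ± 0.65 (edgeR adjusted p = 0.0385). Of 12 hypoxia genes none was lower in ET on day 5 and 3 were higher, which is near the share of all genes on that day. The difference between days was called for 4 of the 12, all negative, beside 14.8% of all genes. Among them *ADH1* went from 1.06 to -1.87 (edgeR adjusted p = 8.36e-04). Among the genes with the smallest p for a positive difference were the transporter genes *ABCG38* (from -2.38 to 3.04) and *FRD3* (from -1.29 to 4.41), the sinapoyltransferase gene *SNG1* (from -4.45 to 2.91) and the GH3 gene *BRU6* (from -4.24 to 0.25). Genes with a negative difference included the beta-glucosidase gene *BGLU21* (from 7.11 to 0.85), the membrane-associated protein gene *PCAP1* (from 3.73 to 1.20) and the glutathione transferase gene *GSTF10* (from 2.18 to -0.42). Of the chloroplast genome, 79 genes were higher in ET on day 5 against 28 on day 10, and the difference was negative for 20 of 114 and positive for none.

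**Figure D5:**
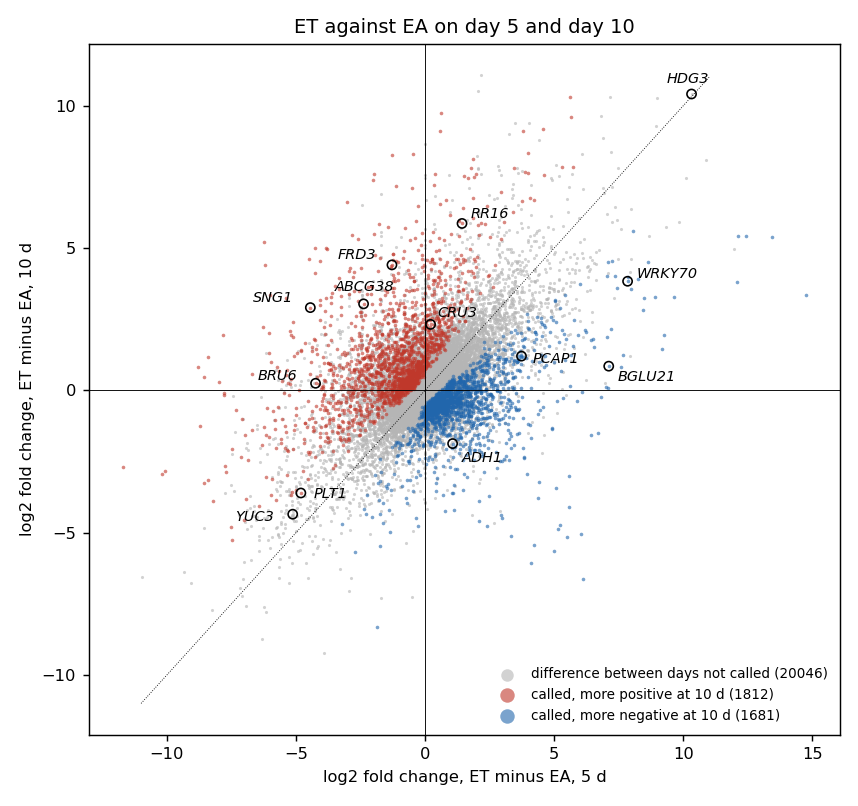
Log2 fold change (ET minus EA) of each gene tested on day 5 (horizontal) and day 10 (vertical), with the dotted line at equal values. Red and blue points are the 1812 and 1681 genes with a called difference between days, circles mark genes named in the report, and *HDG3* and *YUC3* lie close to the line while *SNG1* and *BGLU21* lie far from it.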

How the data were processed

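RNA of IZE explants was depleted of ribosomal RNA, made into ScriptSeq libraries and sequenced as paired ends on a HiSeq. According to the methods and the labels, the authors trimmed the reads with Sickle, removed ribosomal reads with SortMeRNA, aligned the rest to TAIR10 with STAR and deposited 1 table of raw counts of uniquely aligned reads per gene, with whole numbers in all 18 columns. Reads shared by near-identical genes are therefore missing from it. The annotation release, the strand setting and tool versions are not given in the sources used here. EA columns carry the name E5 and were mapped by the sample descriptions. Of 34218 identifiers 32548 matched the RefSeq annotation of TAIR10.1, and 10804 of these had a symbol.

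Counts were tested with edgeR 4.0.16 in R 4.3.3 (filterByExpr, TMM factors, glmQLFit, glmQLFTest) in a design with 1 mean per medium and day, and p-values were adjusted over all genes tested. Day 5, day 10 and their difference were contrasts of this fit. The study's own test was DESeq2 with a beta prior and a limit of 1 on the absolute log2 fold change. DESeq2 1.42.0 with the beta prior, but without that limit, was run as an alternative. CPM were computed from counts and TMM-scaled library totals, and shares are summed counts as a percent of the library total. Beside a group with 3 counts or fewer in each library, a fold is a lower bound against a floor of 3 counts per library.

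Genes named were, in each direction, the 15 largest changes among DEGs with a symbol, at least 10 CPM and no overlap of libraries. To these were added genes from the 5 smallest p and the 5 highest levels of each list, the 5 smallest p in each direction of the difference between days, and all genes of the lists for SE regulators, auxin synthesis, auxin carriers, nitrilases and organ polarity. *IKU2*, *CLV3*, *CA1*, *CASP1*, *HSP101*, *EFE*, *LEA26*, *SAG21* and the markers named as not called or not tested were singled out after their values were seen. The first 3 parts of this rule gave 440 genes, of which 208 were followed through the alternatives, chosen with their values known, and not all of these are described. Some genes of the lists are not reported here and were left out of their lists' values. A further 2141 DEGs that met the first rule had no symbol and were only counted. The members and lists were chosen with earlier results of these data known. The labels call the libraries biological replicates and state no culture of origin, so p-values measure the spread between these libraries. Standard errors come from the edgeR fit and SDs from 3 libraries, so both include the spread between libraries. A floor is a limit of counts and holds no such spread. The fits were also run on simulated counts in which few genes changed. That run cannot show how the fits behave with as many changes as were called here. Alternatives were DESeq2, other scalings, no filter, the libraries of the comparison alone, removal of organelle genes, a replicate block, fold limits and each library left out in turn. Leaving single libraries out of the summed shares was added after the data were seen.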

Additional observations from a re-analysis of the deposited data

Results flagged for a closer look

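Of 241 genes followed, 99 had a called difference between the ET/EA contrasts of day 10 and day 5 (edgeR's quasi-likelihood test, adjusted over all genes, 14.8% of which were called). The difference was positive for 77 and negative for 22, and 17 genes were called on both days in opposite directions. The genes followed were chosen in part by their day 10 values and by the p of this difference. Their share and their balance of directions therefore cannot be compared with those of all genes. Values below are differences of log2 fold changes, day 10 minus day 5, and the opposite-direction genes are marked as crossing.

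For SE regulators it was 1.16 for *ABI3*, 0.94 for *AGL15*, -1.25 for *AGL18*, 1.21 for *PLT1*, 1.17 for *ANT*, 2.12 for *MYB118* and, crossing, 1.14 for *AIL7* and 3.36 for *WOX2*, and 1.51 for *WOX4*, which was not called on day 10. *AGL18* was higher in ET on both days, by 2.37 on day 5 and 1.12 on day 10. Auxin synthesis genes gave 4.13 for *YUC5*, 5.33 for *YUC10*, 2.91 for *TAR4*, -1.42 for *NIT1* and -1.22 for *NIT2*. Auxin carriers gave 0.85 for *PIN4*, 1.06 for *PIN6*, -3.95 for *LAX3* and -1.92 for *EIR1*. Auxin response genes gave 2.77 for *IAA5*, -1.84 for *IAA28*, 2.68 for *ARF11*, 2.55 for *WES1*, 4.49 for *BRU6*, 2.60 for *SAUR33*, 1.25 for *SAUR70* and, crossing, 2.83 for *GH3.3* and 2.67 for *GH3.1*.

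The seed genes followed gave 2.10 for *CRU3*, 2.07 for *CRA1*, 2.63 for *SESA1*, 2.59 for *SESA2*, 2.54 for *SESA4*, 2.01 for *OLEO1*, 3.34 for *LEA*, 0.95 for *DPBF2*, 1.12 for *DOG1* and 1.50 for *EEL*, and, crossing, 2.36 for *OLEO2*, 2.52 for *OLEO4* and 2.86 for *ATS1*. The late embryogenesis abundant genes *LEA26* and *SAG21*, which were not followed, had called differences of -0.76 and -1.23. Endosperm and seed coat markers gave 3.95 for *RR21*, 8.55 for *ALE1* and 5.60 for *TT16*, the last 2 being fitted values that depend on the prior count. Among the largest changes, *CSY1* gave 4.71, *TPS4* 4.37, *CYP79F1* 6.03, *PKR2* 4.35, *CYP71A23* 2.70, *RGP3* 4.90, *ANN6* 2.92, *LCR67* -6.48 and *XTH11* -2.60. *GUN4* of chlorophyll synthesis gave 1.48.

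Organ polarity and meristem genes gave 1.18 for *AFO*, 1.02 for *YAB3*, 1.11 for *YAB5*, 0.83 for *HB32*, 4.09 for *ULT2*, 1.83 for *LBD18*, 2.78 for *CUC1* and 1.96 for *CUC3*, and the root cap gene *SMB* gave 1.43. Cytokinin genes gave 4.43 for *RR16*, 0.94 for *ARR9*, -0.80 for *RR10*, 1.42 for *CKX3*, 1.57 for *CKX7* and, crossing, 4.04 for *CKX6*. Gibberellin and ethylene genes gave 1.34 for *GA20OX3*, 2.80 for *GA20OX1*, 5.07 for *GA3OX3*, -1.85 for *ACO1* and 2.04 for *ACS6*. ABA and SA genes gave 3.35 for *BGLU18*, -1.89 for *EDS16*, -4.01 for *WRKY70* and, crossing, 2.39 for *NCED9* and 1.53 for *CYP707A1*.

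Hypoxia genes gave -2.62 for *SUS1*, -2.65 for *PDC1* and, crossing, -2.94 for *ADH1*. Flavonoid genes gave 4.60 for *DFR*, 3.37 for *LDOX* and 1.39 for *F3H*. Glucosinolate genes gave 3.77 for *TGG2*, 1.36 for *TGG1*, -1.44 for *MYB34* and, crossing, -3.21 for both *CYP79B2* and *CYP83B1*. *TCH4* gave 0.98, the deacetylase gene *HDT4* -1.07 and *DRIP2* 0.74. The genes of smallest p were *BRU6* as above, *SNG1* with 7.35, *FRD3* with 5.69, *ABCG38* with 5.42 and *ABCA4* with 3.26 on the positive side, all but *BRU6* crossing, and *BGLU21* with -6.26, *GSTF10* with -2.59 and *PCAP1* with -2.53 on the negative side. 93.8% of the *F3H*, 91.5% of the *CKX6*, 43.3% of the *RGP3* and 73% of the *GUN4* exon length lies under a gene of the opposite strand.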

How the results depend on the processing

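Beside 7543 DEGs, 4547 genes were called with only the 6 libraries of the comparison (2765 higher, 1782 lower, 4488 of them DEGs), 4628 with a further limit of 1 on the absolute log2 fold change (1578 lower) and 2260 when tested against that limit with glmTreat (1552 higher, 708 lower). The 3493 differences between days became 2064 with their own libraries alone and 746 with glmTreat. Library totals gave 5312 lower genes. Leaving out 1 library gave 5779 to 7477 DEGs. No paired analysis was supported by the data, as libraries of the same letter did not deviate together (r = 0.0185, -0.102 and -0.0016), and with the letters as a replicate block 7730 genes were called. List medians moved with library totals to 0.11 for D-type cyclins, -0.30 for DNA replication, 0.22 for the IPA pathway, 0.26 for cellulose synthases, -0.21 for histone acetyltransferases, 0.43 for embryo markers and -0.44 for tryptophan synthesis. Of 241 genes followed, 209 were called, 146 of these kept direction and call throughout, 11 lost the call without 1 library and 0 reversed. Of the 32 not called, 10 gained a call under an alternative. Over all DEGs, *HB52* and *AT4G31330* turned to -2.16 and -2.18 without ET c, and *CLE6* and *AT4G06065* to 0. With library totals *ABI3* was at -0.04, *PIN6* at -0.11, *LBD18* at -0.13, *WOX12* at -0.13, *WOX13* at -0.14 and *STM* at -0.14, and *STM* at -0.0014 without organelle genes. Without single libraries *ABI3* ranged from -0.05 to 0.35, *AIL1* from -0.0048 to 0.36, *WOX12* from -0.21 to 0.30, *WOX13* from -0.08 to 0.21, *PIN5* from -1.86 to 0.10, *AUX1* from -0.62 to 0.04, *PIN6* from -0.04 to 0.16, *LBD18* from -0.36 to 0.48 and *STM* from -0.25 to 0.43. Apart from leaving out libraries and the construction of the limits, the cause was not tested. ET a, with 11582222 counts, limits what is detectable at low levels.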
